A study of Mus musculus with 12 samples.

Results

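The apolipoprotein genes described here were Apoa1, Apoa2, Apoa4, Apoa5, Apob, Apoc1, Apoc3, Apoe, Apom and Apoh, which are 10 of the 55414 Ensembl genes in the deposited count table. They were chosen by name, through the gene symbols of the GENCODE mouse annotation, and all 10 were among the 13857 genes kept by the filter on low counts. RNAseq was made from the livers of female C57Bl/6J mice aged 8 to 12 weeks, in 4 groups of 3. NaCl/PBS mice were given 0.9% NaCl and, 6 h later, PBS, while NaCl/DEX mice were given 0.9% NaCl and then 10 mg/kg dexamethasone (DEX, a synthetic glucocorticoid). FeSO4/PBS mice were given 300 mg/kg FeSO4, an iron overload, and then PBS, and FeSO4/DEX mice were given 300 mg/kg FeSO4 and then 10 mg/kg DEX. All injections were intraperitoneal and all livers were taken 2 h after the second of them, so that the FeSO4 effect was read at 8 h and the DEX effect at 2 h. The livers were sequenced whole, so fewer cells of a type and less RNA per cell cannot be told apart.

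Apolipoproteins are the protein part of lipoproteins, the particles that carry triglyceride and cholesterol in blood. Hepatocytes make most of them: apolipoprotein B is the scaffold of very low density lipoprotein (VLDL), apolipoproteins A-I and A-II are the main proteins of high density lipoprotein (HDL), and the smaller exchangeable ones, such as C-I, C-III, A-V and E, control how fast particles are lipolysed or taken up. Apoa1, Apoc3, Apoa4 and Apoa5 lie side by side on chromosome 9, and Apoc1 and Apoe are neighbours on chromosome 7.

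Between 16335651 and 23827340 reads per library were counted on genes. A normalized count below is a count scaled with the TMM factors of edgeR, which were 1.14 to 1.16 in NaCl/PBS, 1.02 to 1.06 in NaCl/DEX, 0.90 to 0.95 in FeSO4/PBS and 0.87 to 0.94 in FeSO4/DEX mice. An LFC is a log2 fold change, and a gene is said to rise or fall where its edgeR FDR, the Benjamini-Hochberg adjusted p of the quasi-likelihood test over all 13857 genes, was 0.05 or less. Because the TMM factors differed between groups, scaling by library size alone moved the median LFC of all genes after FeSO4 from -0.02 to -0.34 and the split of called genes from 3770 higher and 3783 lower to 2285 higher and 5829 lower. Among all libraries, FeSO4/PBS mouse 1 lay farthest from its group, with a median absolute difference over genes of 0.334 on the log2 scale against 0.149 to 0.246 in the other 11, so member values that rest on it are given with and without it. Each library is 1 mouse. The p-values set a difference between groups against the spread between mice, which was estimated from all 4 groups together.

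The 10 genes together took about the same part of the counted reads in every group. NaCl/PBS mice gave 4.15% ± 0.115 (SD, n = 3) of their reads to them and NaCl/DEX mice 4.03% ± 0.0699. With FeSO4 the share was 4.18% ± 0.103 in PBS mice and 4.23% ± 0.0682 in DEX mice. The mice ranged from 3.97% to 4.31%, and the ranges of NaCl/PBS, FeSO4/PBS and FeSO4/DEX mice overlapped. Apoe and Apoa1 held most of it, with 1.49% to 1.69% and 0.590% to 0.830% of the reads of NaCl/PBS mice, and they were the only members among the 20 most abundant genes of the table.

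Levels of different genes were compared as normalized counts per kb of annotated exons. In NaCl/PBS mice Apoa1, the main HDL protein, and Apoe, the ligand for the uptake of remnant particles, stood at 71732 ± 12514 and 67076 ± 4211 per kb, and their mice overlapped. Apoc1, an inhibitor of lipoprotein uptake, and Apoa2 followed at 18118 ± 2284 and 18101 ± 595.0 per kb and could not be ordered. Apoh, which binds anionic phospholipids, was at 15531 ± 194.0 per kb. Apob and Apoa5, which promotes triglyceride hydrolysis by lipoprotein lipase, overlapped at 8464 ± 90.5 and 8021 ± 950.1 per kb. Apoc3, an inhibitor of that lipase, Apom, the carrier of sphingosine-1-phosphate on HDL, and Apoa4, a protein of triglyceride-rich particles and HDL that is known to respond to lipid load, came last at 6799 ± 391.7, 4447 ± 237.5 and 2804 ± 618.0 per kb, with no overlap between neighbours.

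The last places of this order differed between groups. Apoa4 was the lowest of the 10 in both NaCl groups and the sixth in both FeSO4 groups, at 15514 ± 4057 per kb in FeSO4/PBS mice, where it overlapped Apoh above it, and at 10907 ± 1713 per kb in FeSO4/DEX mice, where it overlapped Apoc3 below it. Apoa5 went from the seventh place in NaCl/PBS to the ninth in NaCl/DEX mice, at 3931 ± 677.0 per kb, where it overlapped both Apom above it and Apoa4 below it. Exon length was the union of all annotated transcripts, and with the length of the longest transcript instead, 5 of the 10 genes had another rank in NaCl/PBS mice. The union was 4350 bases over 58 transcripts for Apoa2 and 3159 over 11 for Apoc3, but 1815 over 1 for Apoa4. Which transcripts the livers made was not measured. A gene read mainly from shorter transcripts would be understated per kb, so the order of the genes depends on the annotation.

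**Figure D1:**
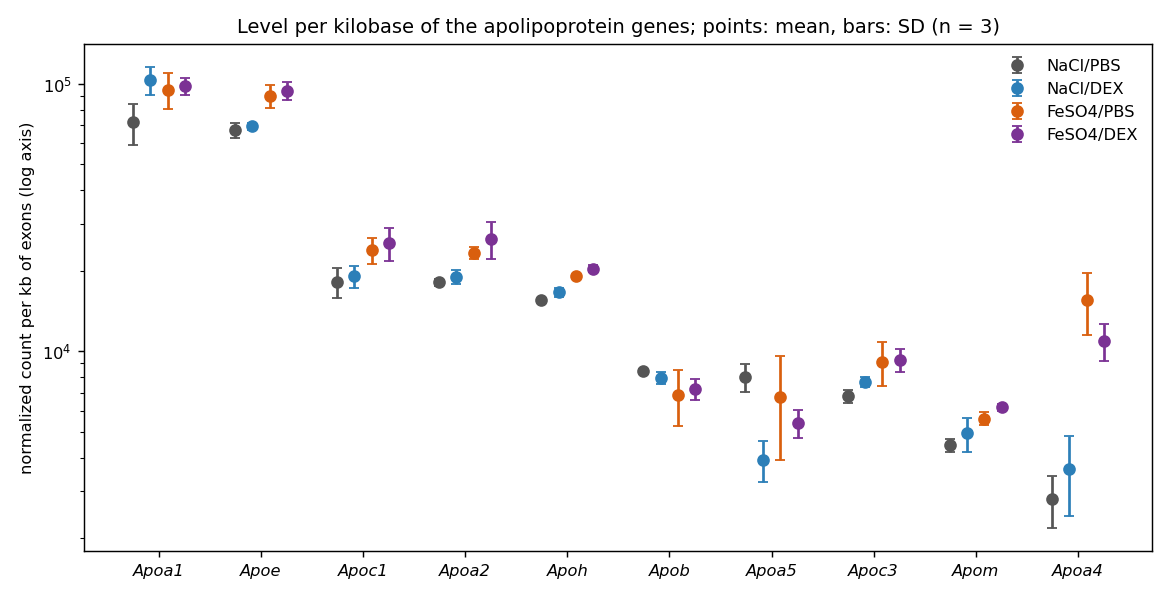
Normalized count per kb of exons (log axis) of the 10 apolipoprotein genes, ordered by their level in NaCl/PBS mice, with the mean (point) and SD (bar) over 3 mice in each group. Apoa4 stands at 2804 per kb in NaCl/PBS and at 15514 per kb in FeSO4/PBS mice, the widest shift of the 10.

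The first comparison asked what FeSO4 did in mice without DEX, and it shares its NaCl/PBS mice with the DEX comparison further on. Of the 10 genes, 8 rose and 0 fell after FeSO4 under TMM scaling, beside 27.2% of all tested genes that were higher and 27.3% that were lower, but with library size alone only Apoa4 stayed higher, Apob and Apoa5 were called lower and the LFC of Apoh crossed 0 to -0.03. No member was lower at an unadjusted p under 0.05 or by DESeq2 either. With an LFC beyond 1 in size as a second condition, Apoa4 alone passed, beside 12.5% of all genes higher and 14.7% lower. The median LFC of the 10 was 0.38 beside -0.02 for all genes, and with library size alone it was 0.06 beside -0.34.

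Apoa4 rose most. Its normalized counts were 4152, 6332 and 4786 in NaCl/PBS mice and 36326, 26117 and 22030 in FeSO4/PBS mice. Every FeSO4/PBS mouse lay above every NaCl/PBS mouse, and mouse 1 was the highest. The LFC was 2.47 ± 0.25 (SE), a 5.53-fold difference, with an edgeR FDR of 2.8e-06. Here and below, the SE was worked back from the quasi-likelihood test, as the size of the LFC divided by the square root of the F statistic. Library size alone gave 2.14 with an FDR of 7.6e-06, leaving out FeSO4/PBS mouse 1 gave 2.25 with an FDR of 5.3e-06, and the LFC stayed between 2.25 and 2.66 as each mouse was left out. The ratio of Apoa4 to Apoa1 reads within a library, which needs no scaling, was 0.0391 to 0.0440 in NaCl/PBS and 0.117 to 0.226 in FeSO4/PBS mice. An annotated lncRNA gene on the opposite strand, Gm10680, shares 632 exon bases with Apoa4, and 1 to 50 reads per library were counted on it.

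Of the other HDL genes, Apoa1, Apoa2 and Apom were 1.32-fold, 1.29-fold and 1.26-fold higher after FeSO4 under TMM scaling, with library size alone giving LFCs of 0.09, 0.05 and 0.01 that were not called. Apoa1 had normalized counts of 101133, 143882 and 122540 in NaCl/PBS and 160589, 138162 and 188002 in FeSO4/PBS mice. Those groups overlapped, and the LFC of 0.41 ± 0.16 had an edgeR FDR of 0.045. That call was lost with a block for replicate number (FDR 0.054), with at least 10 counts per library (0.06) and in a fit of the compared libraries only (0.079). It was also lost without NaCl/PBS mouse 1 (0.18) or 3 (0.096) and without FeSO4/PBS mouse 1 (0.067) or 3 (0.17). Apoa2 ran from 76530 to 81587 in NaCl/PBS and from 97403 to 107319 in FeSO4/PBS mice, and the LFC was 0.37 ± 0.13 with an FDR of 0.025. Apom ran from 4243 to 4668 and from 5505 to 6067, with an LFC of 0.33 ± 0.11 and an FDR of 0.024. The groups of Apoa2 and Apom did not overlap, yet both calls were lost without FeSO4/PBS mouse 1, at FDRs of 0.053 and 0.058. Leaving out NaCl/PBS mouse 1 or 3 also ended the call of Apoa2 (0.069 and 0.065), and leaving out NaCl/PBS mouse 2 ended that of Apom (0.084), which was not called without a filter on low counts either (0.066). Apoa2 shares 889 exon bases with Tomm40l on the opposite strand.

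The genes of the exchangeable proteins showed the same size of difference. Apoe, the most abundant of the 10 by reads, had normalized counts of 289624, 269176 and 255776 in NaCl/PBS and 403976, 360845 and 331223 in FeSO4/PBS mice. The groups did not overlap, and the LFC was 0.43 ± 0.12 with an edgeR FDR of 0.0098, or 0.031 without FeSO4/PBS mouse 1, whereas library size alone gave 0.11 with an FDR of 0.42. Apoc1 was 1.32-fold and Apoc3 1.34-fold higher under TMM scaling, with LFCs of 0.40 ± 0.14 and 0.42 ± 0.14 and FDRs of 0.031 and 0.018, and with LFCs of 0.08 and 0.10 by library size alone. Both calls were lost without FeSO4/PBS mouse 1 (FDRs of 0.074 and 0.067), FeSO4/PBS mouse 2 (0.08 and 0.052) or NaCl/PBS mouse 3 (0.12 and 0.072), and that of Apoc1 also without NaCl/PBS mouse 2 (0.079). Apoh varied little between mice, with 30681 to 31420 in NaCl/PBS and 37763 to 38336 in FeSO4/PBS mice, and its LFC was 0.29 ± 0.10 with an FDR of 0.021 under TMM scaling against -0.03 with an FDR of 0.83 by library size alone. Apoh was not called without NaCl/PBS mouse 2 (0.054) or 3 (0.06), without FeSO4/PBS mouse 2 (0.051), without a filter on low counts (0.12) or in a fit of the compared libraries only (0.053).

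Apob and Apoa5 were the members that were not higher after FeSO4. Apob, the VLDL scaffold, had normalized counts of 119209, 116687 and 117921 in NaCl/PBS and 70892, 102476 and 114667 in FeSO4/PBS mice. The FeSO4/PBS mice all lay below, with mouse 1 far below the others, and the LFC of -0.30 ± 0.16 was not called, with an edgeR FDR of 0.12. It was -0.11 with an FDR of 0.47 without FeSO4/PBS mouse 1, -0.44 with an FDR of 0.035 without FeSO4/PBS mouse 3, and -0.61 with an FDR of 0.0066 by library size alone. Within libraries the ratio of Apob to Apoe reads was 0.412 to 0.461 in NaCl/PBS and 0.175 to 0.346 in FeSO4/PBS mice, so Apob was lower relative to Apoe in each of the 3 FeSO4/PBS livers.

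For Apoa5 the groups overlapped, with 21165, 25119 and 20155 in NaCl/PBS and 27586, 13682 and 14579 in FeSO4/PBS mice. Mouse 1 of the FeSO4/PBS group was the highest of these 6 mice, and the other 2 of its group were the lowest. The LFC was -0.25 ± 0.23 with an edgeR FDR of 0.37 over all mice. Without FeSO4/PBS mouse 1 it was -0.64 ± 0.16 with an FDR of 0.0043. By library size alone, over all mice, it was -0.58 with an FDR of 0.035. The call thus depended on 1 library and on the scaling. The annotation places the lncRNA gene Gm47544 on the opposite strand of Apoa5, with 0 to 12 reads per library.

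**Figure D2:**
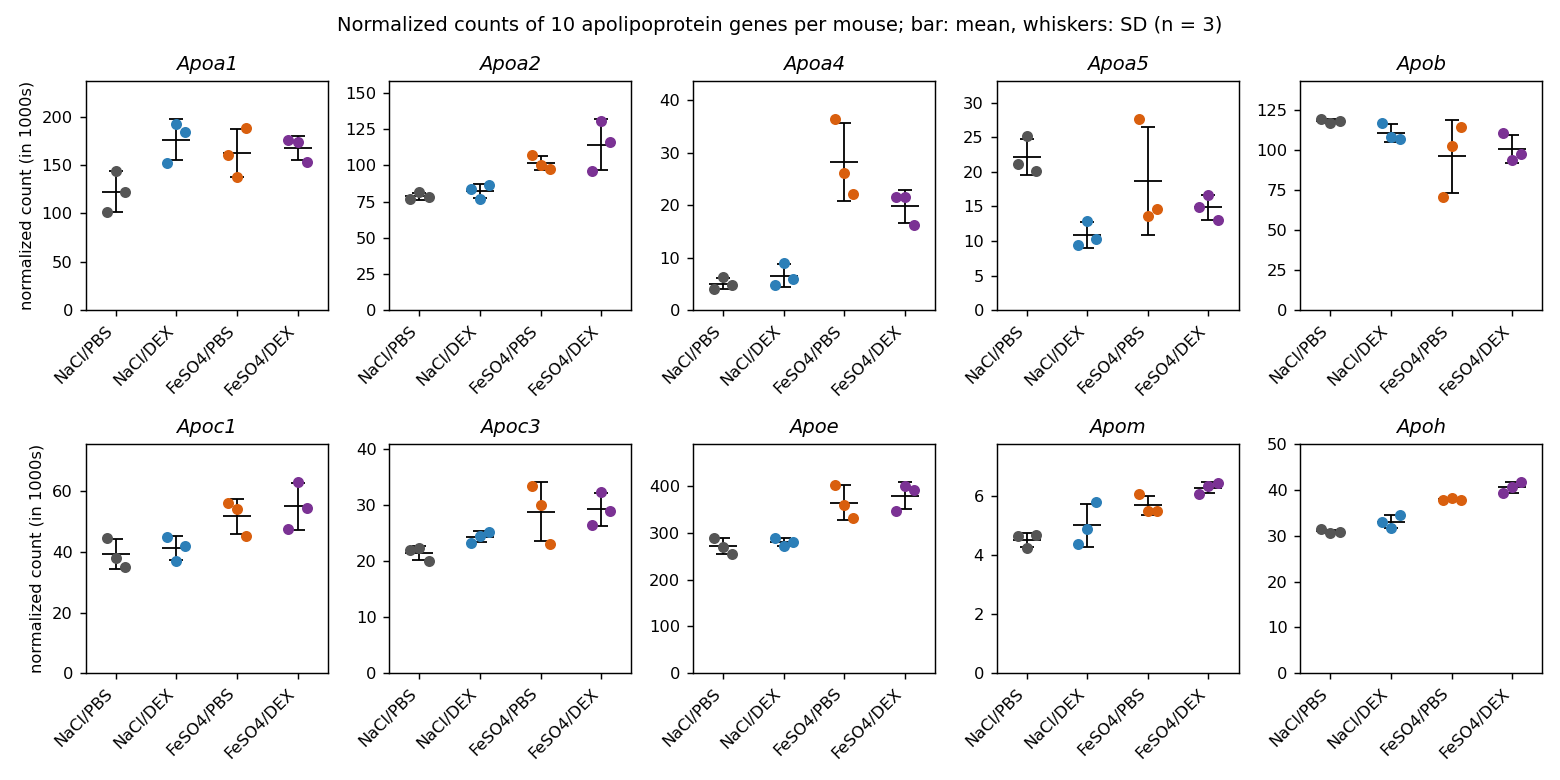
Normalized count (in 1000s) of each apolipoprotein gene per mouse, with mice 1 to 3 of a group from left to right, the group mean (horizontal bar) and the SD (whiskers). Apoa4 is higher in all 6 FeSO4 mice than in all 6 NaCl mice, Apoa5 is lowest in NaCl/DEX mice, and FeSO4/PBS mouse 1 stands apart in Apoa5 and Apob, while the small rises of Apoe, Apoc1, Apoc3, Apoa2, Apom and Apoh after FeSO4 were not called when scaled by library size alone, where that of Apoh crossed 0.

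Markers of other liver cells also differed after FeSO4. Of 12 macrophage markers, 9 were lower and 0 higher, and their summed normalized counts ran from 11157 to 12840 in NaCl/PBS and from 6630 to 7640 in FeSO4/PBS mice. Of 7 tested neutrophil markers 6 were higher, with sums of 119.3 to 299.2 and of 812.4 to 968.6. Macrophages express Apoe, whose rise under TMM scaling was not called by library size alone (LFC 0.11, FDR 0.42). Stellate cell markers (3 of 8 higher, 2 lower) had sums of 6683 to 6945 and of 7956 to 10269, and cholangiocyte markers (1 of 4 tested higher, Sox9) sums of 93.5 to 106.6 and of 284.2 to 660.2. Endothelial markers were called in both directions, 3 of 8 higher and 4 lower, with overlapping sums of 6306 to 7164 and of 5966 to 7040. The part of any of these in the differences of the 10 genes was not tested. Of 11 hepatocyte markers 2 were higher and 0 lower, with a median LFC of 0.21 under TMM scaling and -0.11 by library size alone, and sums of 2369375 to 2743443 and of 2961082 to 3294200. The intestine also makes Apoa4, Apob and Apoa1, and of 7 enterocyte markers only Fabp2 passed the filter, their sums ran from 771.8 to 963.1 in NaCl/PBS and from 692.5 to 769.1 in FeSO4/PBS mice, and Sis and Alpi were at 0 in every group.

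The second comparison asked what DEX did within 2 h in mice without iron overload. Of the 10 genes, Apoa1 rose and Apoa5 fell, beside 6.50% of all tested genes that were higher and 7.15% that were lower, and Apoa1 was not called by library size alone. The same change of scaling moved the split of all called genes from 901 higher and 991 lower to 618 and 1776. With an LFC beyond 1 in size, Apoa5 alone passed, beside 2.97% of all genes higher and 3.41% lower. The median LFC of the 10 was 0.08 beside -0.02 for all genes, and by library size alone -0.07 beside -0.18.

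Apoa5 had normalized counts of 9366, 12951 and 10240 in NaCl/DEX mice, against 20155 to 25119 in NaCl/PBS mice. All NaCl/DEX mice lay below all NaCl/PBS mice, 2.04-fold on average. The LFC was -1.03 ± 0.23 with an edgeR FDR of 0.0081, library size alone gave -1.18 with an FDR of 0.0025, and the values stayed between -1.17 and -0.92 as each mouse was left out, with the call kept every time.

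Apoa1 had 152451, 192382 and 183949 in NaCl/DEX mice and 101133, 143882 and 122540 in NaCl/PBS mice. All NaCl/DEX mice lay above, 1.44-fold on average, although the lowest, 152451, was close to the highest NaCl/PBS mouse, 143882. The LFC was 0.52 ± 0.16 with an edgeR FDR of 0.043. The call was lost by library size alone, at an LFC of 0.37 with an FDR of 0.13, with a block for replicate number, at 0.53 with an FDR of 0.059, at the margin with at least 10 counts per library, and without NaCl/PBS mouse 1, at an LFC of 0.41 with an FDR of 0.17. It was also lost without NaCl/PBS mouse 3 (FDR 0.11), NaCl/DEX mouse 2 (0.13) or NaCl/DEX mouse 3 (0.12).

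The other 8 genes were not called after DEX. Their LFCs ran from -0.09 ± 0.16 for Apob to 0.37 ± 0.24 for Apoa4, with edgeR FDRs of 0.36 to 0.86. Apoa4 had 4737, 8965 and 5980 normalized counts in NaCl/DEX mice, so that its 3 mice overlapped those of NaCl/PBS. Apoe, at 271547 to 288772, differed from NaCl/PBS mice by an LFC of 0.05 ± 0.12. Summed macrophage markers, at 10074 to 11786 in NaCl/DEX and 11157 to 12840 in NaCl/PBS mice, overlapped, and of the 7 neutrophil markers 1 was lower.

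**Figure D3:**
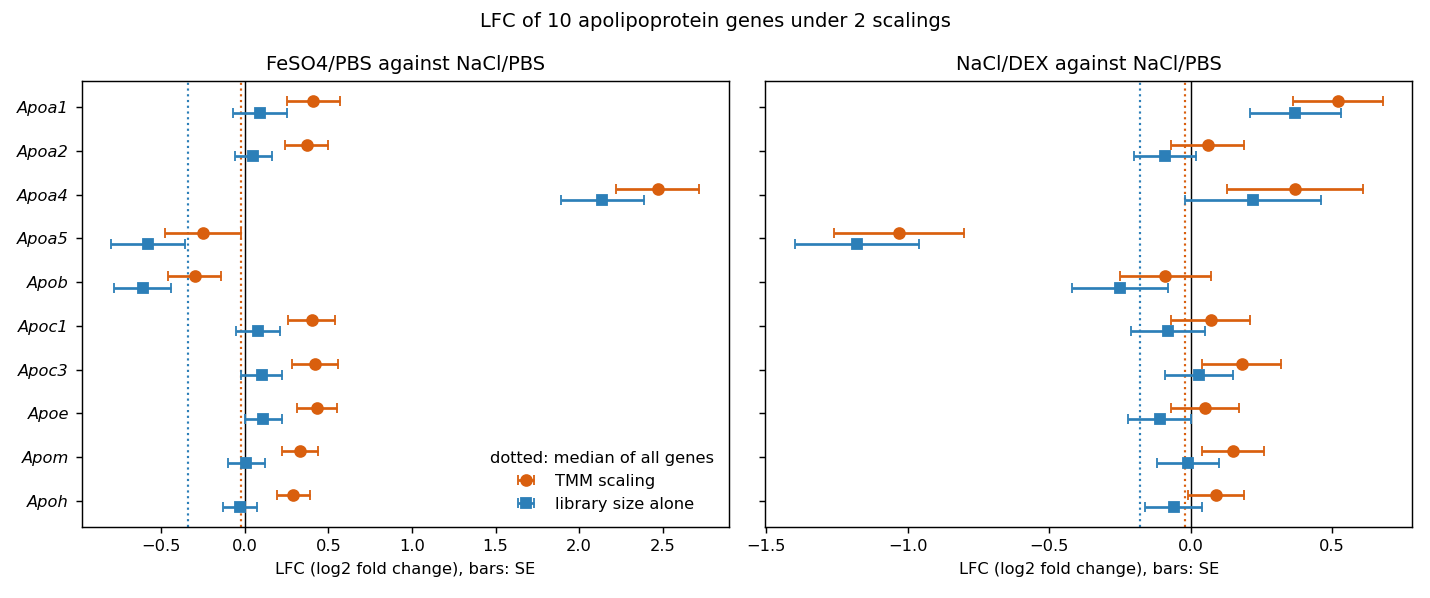
LFC (point) and SE (bar) of the 10 apolipoprotein genes after FeSO4 (left) and after DEX (right), with TMM scaling (circles) and with library size alone (squares), and the median LFC of all genes under each scaling (dotted). After FeSO4, Apoa4 stays at 2.47 and 2.14, while Apoa1, Apoa2, Apoc1, Apoc3, Apoe and Apom move to between 0.01 and 0.11 and Apoh to -0.03. After DEX, Apoa5 is at -1.03 and -1.18.

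The third comparison asked what DEX did in mice that had received FeSO4. None of the 10 genes was called in FeSO4/DEX against FeSO4/PBS mice by edgeR or DESeq2, beside 0% of all tested genes higher and 0% lower by edgeR (DESeq2 called 5 and 6 genes), and none of the 10 had an unadjusted p under 0.05, against 6.49% of all genes. Apoa4 came closest. Its normalized counts were 21640, 21541 and 16208 in FeSO4/DEX mice, all below the 22030 to 36326 of FeSO4/PBS mice, and its LFC of -0.51 ± 0.24 had an edgeR FDR of 0.76. Without FeSO4/PBS mouse 1 the LFC of Apoa4 was -0.30. Apoa5 had 14864, 16687 and 13076 in FeSO4/DEX mice, which overlapped FeSO4/PBS mice, and its LFC was -0.32 ± 0.23, or 0.05 ± 0.16 without FeSO4/PBS mouse 1. Apoa1 differed by 0.05 ± 0.16 and the other 7 genes by 0.02 to 0.17.

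Whether the DEX response itself differed between FeSO4 and NaCl mice was tested as the difference of both responses. None of the 10 was called, beside 2.99% of all genes with a higher and 3.20% with a lower response in FeSO4 mice (414 and 443 genes, or 575 and 327 by library size alone). At an unadjusted p under 0.05 there were Apoa4, with a difference in LFC of -0.87 ± 0.34 and an edgeR FDR of 0.16, and Apoa5, with 0.71 ± 0.32 and 0.23, while DESeq2 called none. Without a filter on low counts both were called, at FDRs of 5.3e-04 and 0.017. Without FeSO4/PBS mouse 1 the difference for Apoa5 was 1.06 ± 0.21 with an FDR of 0.0081. That call thus depended on this 1 library as well as on the filter.

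The last comparison set FeSO4/DEX against NaCl/DEX mice, the FeSO4 effect with DEX in both groups. Of the 10 genes, Apoa2, Apoa4, Apoc1, Apoe, Apom and Apoh were higher and 0 lower, beside 22.4% of all genes higher and 20.9% lower (3103 and 2902 genes, or 2151 and 4146 by library size alone), and with library size alone only Apoa4 was called, with the same sign for all 6. No member was lower at an unadjusted p under 0.05 or by DESeq2. With an LFC beyond 1 in size only Apoa4 passed, beside 10.6% of all genes higher and 9.83% lower. The LFC of Apoa4 was 1.59 ± 0.25 with an edgeR FDR of 1.4e-04, from 6561 ± 2173 in NaCl/DEX to 19797 ± 3108 normalized counts in FeSO4/DEX mice, with no overlap, and by library size alone it was 1.39. The other 5 had LFCs of 0.29 to 0.47, and without FeSO4/DEX mouse 2 only Apoa4 was called, while leaving out any other of these 6 mice left 3 to 5 genes called. Apoa1 was at 167445 ± 12415 and 176260 ± 21047 normalized counts, with an LFC of -0.07 ± 0.16 and overlapping mice. In the same comparison 6 of 12 macrophage markers were lower, with sums of 5804 to 8878 in FeSO4/DEX and 10074 to 11786 in NaCl/DEX mice, and 7 of 7 neutrophil markers were higher. Their part in the differences of the members was not tested.

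On chromosome 9 of mm39, the genes that behaved differently lie close together. Apoa1 (ENSMUSG00000032083) spans chr9:46139878-46142212 and Apoa4 (ENSMUSG00000032080) spans chr9:46151994-46154757, both on the plus strand, with Apoc3 (ENSMUSG00000032081) between them at chr9:46142527-46146934 on the minus strand. Apoa5 (ENSMUSG00000032079) lies at chr9:46179931-46183217 on the plus strand, 25173 bases beyond Apoa4. After FeSO4, LFCs within these 43340 bases were 0.41 for Apoa1, 0.42 for Apoc3, 2.47 for Apoa4 and -0.25 for Apoa5. After DEX, those of Apoa1 and Apoa5 had opposite signs, 0.52 and -1.03. The gene beyond Apoa5, Zpr1, begins 1144 bases after it and was looked up after its values had been seen. It encodes a zinc finger protein, and its normalized counts ran from 896.2 to 1114 in NaCl/PBS and from 7060 to 15376 in FeSO4/PBS mice. The LFC of Zpr1 was 3.29 ± 0.28 with an edgeR FDR of 5.0e-07. After DEX its LFC was -0.55 ± 0.26, which was not called. Other neighbours rose after FeSO4 as well. Sik3, which ends 4.4 kb before Apoa1, had an LFC of 1.47 ± 0.15 with an FDR of 2.1e-06. Bud13, beyond Zpr1, had 1.37 ± 0.18 with an FDR of 2.7e-05. After DEX, Sik3 rose by 0.65 ± 0.14 with an FDR of 0.0077, and Bud13 was not called.

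**Figure D4:**
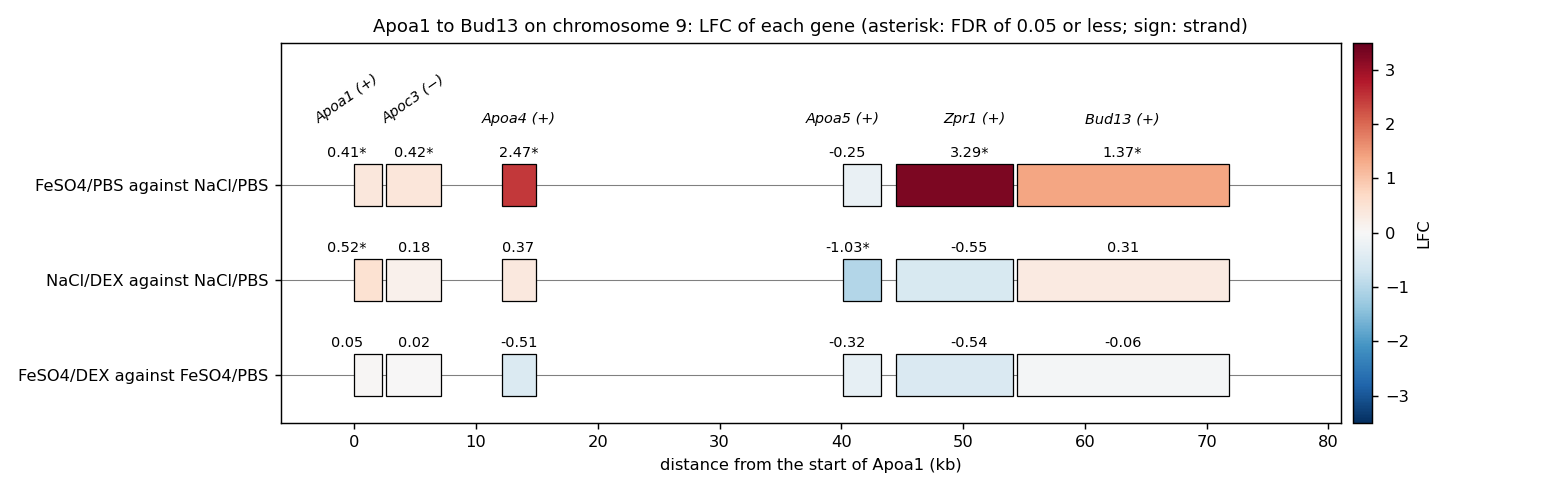
Map of the genes from Apoa1 to Bud13 in kb from the start of Apoa1, drawn to scale, with the LFC of each gene under TMM scaling as colour and number and an asterisk for an FDR of 0.05 or less, for FeSO4, DEX and DEX after FeSO4. Apoa4 (2.47) and Zpr1 (3.29) rise after FeSO4 while Apoa5 between them is at -0.25, and Apoa5 (-1.03) falls after DEX. The rises of Apoa1 and Apoc3 after FeSO4 and of Apoa1 after DEX were not called when scaled by library size alone.

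On chromosome 7, Apoc1 (chr7:19422540-19427328) and Apoe (chr7:19430034-19434947) lie on the minus strand with 2705 bases between them. They had closely similar patterns over the 12 livers, with a root mean square difference of 0.078 between their centred log2 CPM values, the smallest of any pair of members. Apoa2 (chr1:171049125-171053948), Apoh (chr11:108233964-108305232), Apob (chr12:8027648-8066835) and Apom (chr17:35347973-35351026) lie apart from both clusters. Apoa2 and Apoe were the next closest pair, at 0.087, although they are on different chromosomes. Among genes outside the 10, Apoe was nearer to H2-Q10, at 0.063, than to Apoc1. The nearest such gene to Apoc1 was B2m, at 0.087.

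Promoters of Apoa4, Apoa5 and Apoa1, chosen after their values were seen, are shown as the sequence just before the first annotated exon, since these genes differed in response while lying in 1 cluster. The letters are those of RefSeq promoters (GRCm38.p6), placed on GRCm39 by exact match on the plus strand. Capitals mark matches, on either strand, to the motifs searched. These were the 6-base sites AGGTCA of nuclear receptors and AGAACA of steroid receptors, the 13-base glucocorticoid response element, TTGCNNAA of C/EBP factors, TGANTCA of AP-1, TGACNNNGC of antioxidant response elements, the E-box CACGTG and the TATA box TATAAA.
Apoa4, chr9:46151892-46151993: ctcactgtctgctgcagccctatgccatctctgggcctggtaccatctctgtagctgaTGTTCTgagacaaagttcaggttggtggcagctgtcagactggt
Apoa5, chr9:46179681-46179930: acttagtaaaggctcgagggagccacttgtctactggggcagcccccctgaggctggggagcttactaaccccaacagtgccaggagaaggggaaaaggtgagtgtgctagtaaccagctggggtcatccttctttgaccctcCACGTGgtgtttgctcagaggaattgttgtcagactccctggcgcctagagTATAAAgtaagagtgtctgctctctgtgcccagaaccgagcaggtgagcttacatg
Apoa1, chr9:46139678-46139877: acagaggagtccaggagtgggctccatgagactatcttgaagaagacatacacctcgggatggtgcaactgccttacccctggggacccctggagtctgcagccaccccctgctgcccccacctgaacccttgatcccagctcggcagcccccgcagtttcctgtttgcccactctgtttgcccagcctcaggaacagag

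Apoa4 held AGAACA on the minus strand, shown as TGTTCT, at 192 and again at 110 bases before its RefSeq start. The first match is in the stretch shown, and the second lies within the annotated gene. Of all 32851 RefSeq promoters of 300 bases, 19% held this motif, among them those of Apoe, Apoh and Apom. Apoa5 held the E-box, which 7.15% of promoters held, and a TATA box, which 13.6% held, among them promoters of Apoa2, Apob and Apoe. The 300 bases of Apoa1 held none of the 8 motifs. The 13-base glucocorticoid response element, found in 0.475% of promoters, matched none of the 12 promoters of the 8 members in the table, and neither did the AP-1 and antioxidant motifs, found in 7.81% and 12.4%. AGGTCA (16.3% of all promoters) matched in Apoa2 and Apoh, and TTGCNNAA (10.8%) in Apoa2 and Apob. No entry was given for Apoc1 and Apoc3. Several RefSeq starts lay inside the gene as GENCODE annotates it. Those of Apoe were 1834, 2401 and 2624 bases in, start 1 of Apoa2 was 3498 and that of Apoh 52159. Before the start of Apom, only 1 base preceded its own annotated exons. The AGAACA matches of Apoe, Apoh and Apom thus lay within the annotated genes, not before them.

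For each member, the gene with the most similar pattern was sought among 2558 other abundant genes, by the root mean square difference of centred log2 CPM over the 12 livers. For Apoa4 it was Bag3, a co-chaperone of HSP70, at 0.207, with LFCs of 2.68 after FeSO4 and 0.42 after DEX. For Apoa5 it was Sema4a, at 0.284, which was also lower after DEX, by an LFC of -0.68. For Apoa1 it was Cpt2, a mitochondrial fatty acid oxidation enzyme, at 0.153. For the remaining genes it was B2m for both Apoa2 and Apoc1, Uqcrq for Apoc3, H2-Q10 for Apoe, Gnas for Apom, Nab1 for Apob and Lamp1 for Apoh, at 0.040 to 0.087. These genes also varied less over the livers. Their own root mean square was 0.158 to 0.251, against 1.083 for Apoa4, 0.464 for Apoa5 and 0.263 for Apoa1. A smaller difference is therefore not a closer match. These are descriptions, since all genes share the same 12 libraries.

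The wider pathway was read from 4 lists, in which 124 genes were tested, 39 of them (31.5%) higher and 40 (32.3%) lower after FeSO4, near the 27.2% and 27.3% of all genes. By library size alone 19 were higher and 58 lower. After DEX, 14 (11.3%) were higher and 18 (14.5%) lower, beside 6.50% and 7.15% of all genes, and 10 and 23 by library size alone. Among 16 other genes of apolipoproteins and HDL proteins, 5 were higher and 3 lower, with a median LFC of 0.17 under TMM scaling and -0.15 by library size alone, where 2 were higher and 5 lower. Saa2 and Saa1, acute-phase apolipoproteins of HDL, rose by LFCs of 2.67 ± 0.96 and 2.10 ± 0.75, both with an edgeR FDR of 0.03, but Saa1 had 101000, 17234 and 11262 counts and Saa2 105629, 14537 and 9283 in FeSO4/PBS mice, with mouse 1 far above the others in both. Without that mouse the LFCs were 0.94 ± 0.80 for Saa2 (FDR 0.35) and 0.61 ± 0.59 for Saa1 (0.41), and the list had 2 genes higher and 4 lower. Both calls were also lost without NaCl/PBS mouse 1 (0.083 and 0.09) or 3 (0.10 for both). The lowest of the FeSO4/PBS mice in Saa1 (14363 normalized) lay below the highest NaCl/PBS mouse (17707), and the FDR of Saa1 by library size alone was 0.054. Saa1 and Saa2 are near-identical, so reads could be split between them. Saa4, the constitutive member, fell by 1.88 on the log2 scale and Apol9a by 1.28. After DEX, Saa4 rose by 0.82 ± 0.22 and Apol9a fell by 0.94. Apoc4 was not called, and Apoc2, the activator of lipoprotein lipase, had only 12 to 50 counts per library, where Apoc2l is annotated over both genes on the same strand and had 0, so its level is uncertain.

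Among 40 genes of lipoprotein assembly and secretion, 15 rose and 9 fell after FeSO4, with a median LFC of 0.21 under TMM scaling and -0.11 by library size alone, where 6 were higher and 14 lower. The largest rises were those of Cidec and Plin2, which encode lipid droplet proteins, with LFCs of 7.26 ± 0.48 and 2.48 ± 0.21. Cidec went from 8, 27 and 5 counts in NaCl/PBS to 1817, 1417 and 1485 in FeSO4/PBS mice. The largest falls were those of Sort1, a sorting receptor that binds apolipoprotein B, and Pdcd4, a translation inhibitor, with LFCs of -1.52 ± 0.25 and -1.36 ± 0.13. After DEX, 5 rose and 3 fell, among them Acsl1, an acyl-CoA synthetase (0.93 ± 0.20), Vmp1, an ER protein needed for lipoprotein release (0.65 ± 0.12), Plin2 (-0.63 ± 0.20) and Pdcd4 (-0.60 ± 0.13).

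Among 28 genes of lipoprotein remodelling and receptors, 8 rose and 7 fell after FeSO4, with a median LFC of 0.14 under TMM scaling and -0.18 by library size alone, where 5 were higher and 13 lower. Abca1, which loads lipid onto apolipoprotein A-I, rose by an LFC of 1.86 ± 0.12, from 3174 to 3291 normalized counts in NaCl/PBS to 11308 to 12596 in FeSO4/PBS mice. Angptl4, an inhibitor of lipoprotein lipase, rose by 1.54 ± 0.26, while Lipg, endothelial lipase, and Angptl8, another regulator of lipoprotein lipase, had LFCs of -2.17 ± 0.26 and -1.76 ± 0.23. After DEX, 3 rose and 4 fell. Lipg and Angptl4 rose by LFCs of 1.22 ± 0.23 and 0.96 ± 0.25, and Angptl8 and Abcg1, a sterol transporter, had LFCs of -2.44 ± 0.24 and -0.75 ± 0.19.

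Among 40 regulators of apolipoprotein genes, 11 rose and 21 fell after FeSO4, with a median LFC of -0.36 beside -0.02 for all genes. By library size alone 6 were higher and 26 lower, with a median of -0.68 beside -0.34. Cebpd and Cebpb, which encode C/EBP factors of the acute phase, rose by LFCs of 3.63 ± 0.31 and 2.08 ± 0.17. Nr1i3 (CAR) and Nr0b2 (SHP), nuclear receptors of bile acid and drug metabolism, had LFCs of -2.28 ± 0.20 and -2.21 ± 0.40. After DEX, 5 rose and 10 fell, with a median of -0.14. Cebpd and Cebpb rose by LFCs of 1.49 ± 0.31 and 1.29 ± 0.16, and Nr1d1 (REV-ERBalpha), a repressor of the clock, fell most, with an LFC of -2.53 ± 0.35. Of the genes named from these lists, Apoc4 alone changed sign by library size alone, from 0.18 to -0.15 after FeSO4 and from 0.04 to -0.11 after DEX, and it was not called. The DEX calls of Saa4, Plin2, Angptl4 and Abcg1 were lost in 4 (Plin2 in 5) of the 6 fits that left out 1 mouse, with FDRs of up to 0.097, 0.18, 0.093 and 0.072. None of the 124 genes was called by edgeR after DEX in FeSO4 mice, where 7 had an unadjusted p under 0.05.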

How the data were processed

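RNAseq counts were available for 12 livers, 3 in each of 4 groups. From stranded mRNA libraries and single-end reads, quality-checked with FastQC and aligned to mm39 by STAR 2.7.10b, the authors deposited whole-number counts per Ensembl gene, without normalization. Which strand was counted is not given in the sources used here. The submitters' notes also name DESeq2.

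Symbols, positions and exon lengths came from GENCODE M39. Counts were analysed with R 4.3.3, edgeR 4.0.16 and DESeq2 1.42.0: 1 quasi-likelihood model of all 12 libraries with a mean per group, edgeR's filter on low counts (13857 genes kept), TMM factors and Benjamini-Hochberg adjustment. The biological coefficient of variation was 0.169. The model was tested on simulated data. Figures used Python 3.11.15 and matplotlib 3.10.9. No library repeated another: the chi-square per gene between mice of 1 group was 18.3 to 89.5, where sampling alone gives about 1.

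The members and lists were chosen with earlier results of these data known. From each of the 4 lists, the 2 largest rises and 2 largest falls with a mean normalized count of at least 100 were named, Apoc2, Apoc2l and Apoc4 besides, and 1 gene that the rule names is not reported here. Similar genes were sought at a mean normalized count of at least 1000. Ratios of reads between members and the neighbours Zpr1, Sik3 and Bud13 were looked at after the values had been seen. Alternatives were DESeq2, DESeq2's size factors, library size alone, no filter, a minimum of 10 counts per library, a block for replicate number, only the libraries compared, a minimum LFC of 1, other denominators and lengths, and each mouse left out.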

Additional observations from a re-analysis of the deposited data

Results flagged for a closer look

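None of the 10 apolipoprotein genes had a DEX response that differed between FeSO4 and NaCl mice by edgeR (FDR of 0.05 or less). Of 20 related genes named in the text, 5 did, and all of these were named for a large DEX response in NaCl mice, which is 1 arm of the difference, so their number is a description. Over all 124 related genes 9 (7.26%) had a higher and 3 (2.42%) a lower response in FeSO4 mice, beside 2.99% and 3.20% of all genes. Angptl8 differed by 2.26 ± 0.34 on the log2 scale (edgeR FDR 0.0015), with LFCs after DEX of -2.44 in NaCl and -0.19 in FeSO4 mice. Nr1d1 differed by 2.49 ± 0.47 (0.0068), with -2.53 and -0.03. Cebpb differed by -1.10 ± 0.23 (0.011), with 1.29 and 0.19. Apol9a differed by 1.15 ± 0.29 (0.031), with -0.94 and 0.21. Vmp1 differed by -0.65 ± 0.16 (0.032), with 0.65 and -0.00. Groups of 3 mice are too small for a test of single outlying mice.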

How the results depend on the processing

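Over 50 LFCs, those of the 10 genes in the 5 comparisons, DESeq2 and DESeq2's size factors changed no call. Library size alone lost 13 calls, among them that of Apoh after FeSO4, whose LFC turned to -0.03, and added 2. Fitting only the compared libraries, over 40 LFCs, lost 4 calls (Apoa1 and Apoh after FeSO4, Apom and Apoh in FeSO4/DEX against NaCl/DEX mice) and added 1 (Apoa5 in the latter, 0.44 with an FDR of 0.034). In counts of members, library size alone left 1 higher and 2 lower after FeSO4 and 0 higher after DEX. The same scaling left 1 higher in FeSO4/DEX against NaCl/DEX mice, and 19 of the related genes higher after FeSO4. A minimum LFC of 1 left 1, 0 and 1 member higher in these 3 comparisons, 14 related genes higher and 19 lower after FeSO4, and 4 and 6 after DEX. At least 10 counts in every library left 0 members higher after DEX. Without a filter, 1 member had a higher and 1 a lower DEX response in FeSO4 mice. The cause was not tested.

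As each mouse was left out, 3 to 7 members were higher and 0 to 1 lower after FeSO4, 0 to 1 higher after DEX, 1 to 5 higher in FeSO4/DEX against NaCl/DEX mice, and 0 to 1 had a higher DEX response in FeSO4 mice. Related genes higher after DEX numbered 8 to 12. With replicate number as a block, 7 members were higher after FeSO4 and 0 after DEX. Deviations of same-numbered mice had correlations of -0.08 to 0.13, and 4 of 12 mice correlated best with their own number. With 3 mice a group, this check cannot decide whether the numbers pair the mice. Without the 20 most abundant genes the share of the members was 5.67%, 5.57%, 5.81% and 5.93% in NaCl/PBS, NaCl/DEX, FeSO4/PBS and FeSO4/DEX mice. With the longest transcript as length, the ratio of the highest to the lowest level, taken in each mouse and averaged, was 33.2, 23.9 and 22.8 in NaCl/PBS, FeSO4/PBS and FeSO4/DEX mice, against 27.5, 19.5 and 18.8. With 3 mice a group, an exact two-sided permutation test of 1 gene cannot give a p below 0.1.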
